A study of Arabidopsis thaliana with 12 samples.

Results

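The genes described here are XTH18, IRX15-L and AT5G62360, from families linked to 3 kinds of matrix polysaccharide in the plant cell wall. They were taken by symbol from the annotation of the array, with 1 probe set each, so they make up 3 of the 22746 probe sets tested. They were chosen because their signals differed between genotypes in these data, so their levels and differences are given as a description and without a test.

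Rosette leaves of 6-week-old Arabidopsis thaliana, the thale cress, a model plant of the mustard family, were profiled on 12 arrays, 3 for each of 4 genotypes. Col-0 is the wild type. OE1 and OE2 are a pair of lines that overexpress TaFLS, named for flavonol synthase, the enzyme that turns dihydroflavonols into flavonols. The line fls1-3 carries a mutant allele named for the FLS1 gene. All plants grew in soil with 16 h of light at 22 °C and 60% humidity, and no other treatment is named. The labels describe flavonols in leaves and guard cells as lowered in OE1 and as raised in OE2 and in fls1-3. These descriptions conflict with the genotype names, since OE1 overexpresses a flavonol synthase and is described as lowered, while fls1-3 is a flavonol synthase mutant and is described as raised. The promoter driving TaFLS, the nature of the fls1-3 allele and the number of plants behind each array are not stated in these sources, and the spread between arrays may be partly technical.

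In the growing cell wall, cellulose fibres lie in a matrix of hemicelluloses and pectins. XTH enzymes cut and rejoin xyloglucan, a hemicellulose that coats and links cellulose in the primary wall, and are known for their part in wall loosening and assembly. Xylan is the main hemicellulose of secondary walls such as those of xylem vessels, and IRX15 and IRX15-L are closely related proteins needed for normal xylan there. Pectin is secreted with methyl esters, pectin methylesterases remove them, and inhibitor proteins of the family to which AT5G62360 belongs can block those enzymes.

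Several properties of the arrays bear on the labels. One control probe set, AFFX-r2-At-U12639_at, for which the annotation used here gives no gene, had a log2 signal of 4.68 to 5.31 on the Col-0 arrays and 0.63 to 1.70 on those labelled OE1, against 14.18 to 14.38 on those labelled OE2 and 13.03 to 13.50 on those labelled fls1-3. It had the widest spread of group means among the 64 control probe sets, 12.98 log2 units, with the next at 1.32. On this probe set the arrays labelled OE1 and OE2, a pair of lines with the same transgene, were not alike, while OE2 and fls1-3 were both high. If the labels OE1 and fls1-3 had been exchanged, each OE1 and fls1-3 value below, the high XTH18 signal included, would belong to the other genotype. An exchange was not tested and cannot be settled from the labels, so every direction below refers to the arrays with that label. The arrays labelled OE1 also had a larger excess of the 3' over the 5' signal of the GAPDH control, 2.1 to 2.44, against 0.86 to 1.65 on the other 9 arrays. For the actin and ubiquitin controls OE1 had the highest group means, 5.27 and 2.12. Its arrays overlapped Col-0 for actin and OE2 for ubiquitin, so only GAPDH set them apart. The part of the control probe set or of these 3' to 5' differences in the results was not tested. No probe set carries the name FLS1 in the annotation table, and its level was not used to check the labels. The mesophyll marker RCA, for Rubisco activase, was above 99.9% of probe sets in mean signal, and the root hair expansin genes EXPA7 and EXPA18 lay at percentiles 18.7 and 29.1. No xylem or phloem marker of the lists has a named probe set, so the share of vascular tissue was not measured. In whole leaves, a change in the number of cells of a type and a change in RNA per cell cannot be told apart.

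XTH18 encodes a xyloglucan endotransglucosylase/hydrolase, one of a small group of close relatives known mainly from roots. Its log2 signal was 5.24, 5.28 and 4.98 on the 3 Col-0 arrays, in the order of their replicate numbers. It was 5.29, 6.04 and 4.98 on the arrays labelled OE1. It was 6.99, 5.50 and 6.13 on those labelled OE2, and 9.90, 7.76 and 7.51 on those labelled fls1-3. The 3 fls1-3 arrays lay above the other 9, with a gap of 0.52 between the lowest of them and the highest OE2 array. OE2 lay above Col-0 without overlap but overlapped OE1, and OE1 overlapped Col-0.

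The order of group means for XTH18 was thus Col-0 at 5.17 ± 0.16 (SD, n = 3), OE1 at 5.44 ± 0.55, OE2 at 6.21 ± 0.75 and fls1-3 at 8.39 ± 1.31. The spread between arrays was widest in fls1-3, where replicate 1 stood 2.13 log2 units above replicate 2. The difference of fls1-3 from Col-0 was 3.22 ± 0.60 log2 units (SE from the fit over all arrays), or 9.34-fold. Without fls1-3 replicate 1 it was 2.47, or 5.54-fold. On the Col-0 arrays the signal lay between percentiles 26.5 and 33.4 of the probe sets, a range in which signals of this kind scatter, and on the fls1-3 arrays between 54.4 and 83.9. The size of this fold change is therefore less certain than its direction on these arrays. The differences of OE2 and OE1 from Col-0 were 1.04 ± 0.60 and 0.27 ± 0.60.

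IRX15-L encodes a protein of xylan synthesis, named for irregular xylem, the collapsed vessels seen in mutants of this pathway. Its log2 signal was 6.29, 6.78 and 6.55 in Col-0. It was 7.402, 7.22 and 7.51 on the arrays labelled OE1 and 8.60, 8.25 and 7.85 on those labelled OE2. On the arrays labelled fls1-3 it was 8.90, 8.72 and 8.88. No 2 groups overlapped. The arrays formed 4 steps from Col-0 through OE1 and OE2 to fls1-3, with gaps of 0.44, 0.35 and 0.13 between the nearest arrays of neighbouring groups, the last of them smaller than the spread within OE2.

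IRX15-L had group means of 6.54 ± 0.24 in Col-0, 7.38 ± 0.15 in OE1, 8.23 ± 0.37 in OE2 and 8.83 ± 0.097 in fls1-3 (SD, n = 3 each). The differences from Col-0 were 0.84 ± 0.23 in OE1, 1.69 ± 0.23 in OE2 and 2.29 ± 0.23 in fls1-3 (SE), or 1.78-fold, 3.23-fold and 4.90-fold. Its pooled SD within groups, 0.24, was below the median of 0.297 for probe sets with a mean log2 signal of 7 to 9, so of the 3 genes it had the smallest spread between arrays. In the ranking of all probe sets by their difference from Col-0, from the largest rise down, it stood at rank 189 in fls1-3 and 781 in OE2. The ordering of the 12 arrays into these 4 separate steps was found for 9 probe sets, or 0.0396% of those tested, and the reverse ordering for 0. This is the order of IRX15-L itself, a gene chosen for its differences between these groups. The counts are therefore a description and no support for the gene, and other orders of the groups are not counted here.

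The 9 probe sets with this ordering include 5 that name a single gene, IRX15-L, AT1G52720, AT3G55430, AT3G62010 and AT1G76580. They were picked out after their values had been seen. AT1G52720 had means of 9.48, 10.18, 11.19 and 11.66 in Col-0, OE1, OE2 and fls1-3. AT3G55430, a gene of a beta-glucanase family, had means of 9.66, 9.99, 10.65 and 11.21. The steps of both genes had the same order as those of IRX15-L, and the whole range of AT3G55430 was narrower, at 1.55 log2 units between Col-0 and fls1-3 against 2.29.

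AT5G62360 belongs to the plant invertase and pectin methylesterase inhibitor family. Its log2 signal was 4.97, 5.93 and 5.35 in Col-0. It was 5.69, 6.35 and 6.11 on the arrays labelled OE1. It was 9.61, 8.48 and 8.29 on those labelled OE2, and 9.88, 8.71 and 8.41 on those labelled fls1-3. The arrays fell into a low set of Col-0 and OE1, reaching up to 6.35, and a high set of OE2 and fls1-3, starting at 8.29. Col-0 overlapped OE1, and OE2 overlapped fls1-3.

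The group means of AT5G62360 were 5.42 ± 0.48 in Col-0, 6.05 ± 0.33 in OE1, 8.80 ± 0.71 in OE2 and 8.999 ± 0.78 in fls1-3 (SD, n = 3 each). Its differences from Col-0 were 3.38 ± 0.44 in OE2 and 3.58 ± 0.44 in fls1-3 (SE), or 10.4-fold and 11.97-fold, and 0.63 ± 0.44 in OE1. It stood at rank 30 in OE2 and rank 11 in fls1-3 in the ranking by rise from Col-0. Between OE2 and fls1-3 the means differed by 0.20, which was less than the SD within either group. The high set is the same 6 arrays on which the control probe set described above was high. All OE2 and fls1-3 arrays lay above all Col-0 and OE1 arrays for 245 probe sets, or 1.08% of those tested, IRX15-L among them, so this split is shared by many genes. The high set also holds the arrays whose labels describe raised flavonols, and genotype, control signal and flavonol label cannot be told apart here.

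**Figure D1:**
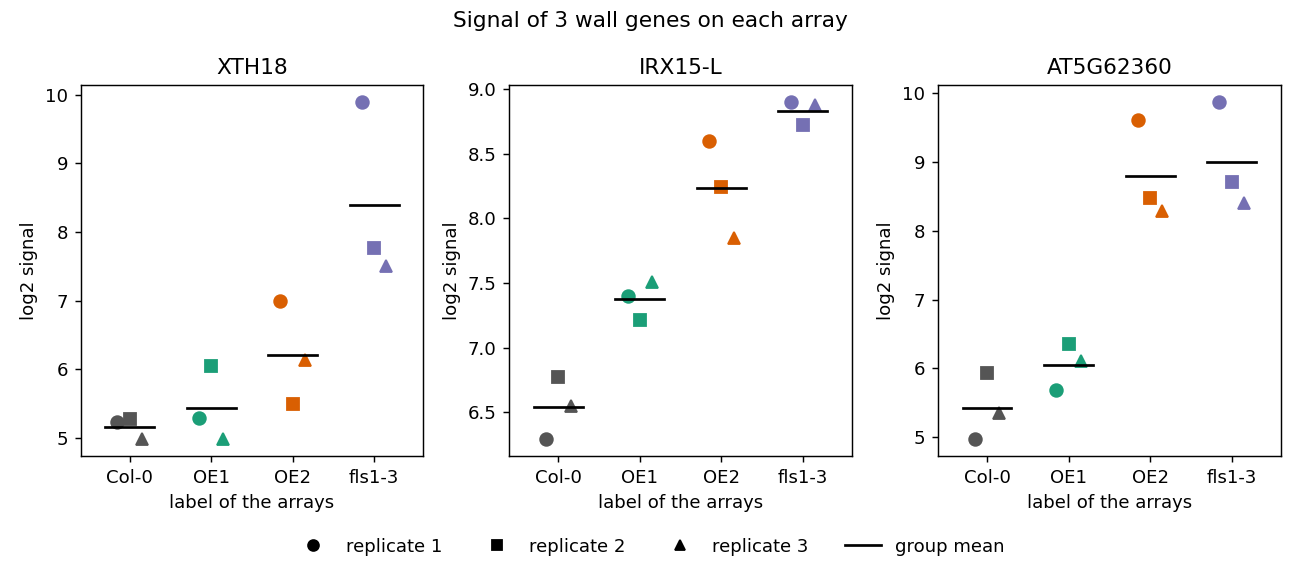
Log2 signal of XTH18, IRX15-L and AT5G62360 on each of the 12 arrays, by the label of the arrays, with a marker for each replicate number and a line at the group mean (the vertical axes differ and do not start at 0). IRX15-L forms 4 separate steps from 6.29 to 8.90, AT5G62360 splits into a set up to 6.35 and a set from 8.29, and XTH18 is highest on the fls1-3 arrays, with replicate 1 at 9.90.

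The group means of all 3 genes rose in the same order, from Col-0 through OE1 and OE2 to fls1-3. Over the 12 arrays the correlation of IRX15-L with AT5G62360 was r = 0.93. It was 0.79 for XTH18 with IRX15-L and 0.8 for XTH18 with AT5G62360. The genes differed in which groups were clear of each other. XTH18 set the arrays labelled fls1-3 above all others, AT5G62360 set those labelled OE2 and fls1-3 above the rest, and IRX15-L separated every label, in each case as read from non-overlap of the arrays. On the arrays labelled OE1, IRX15-L lay above Col-0 on all 3 of them while XTH18 and AT5G62360 overlapped Col-0. The OE1 differences were 0.84 ± 0.23 for IRX15-L, 0.63 ± 0.44 for AT5G62360 and 0.27 ± 0.60 for XTH18 (SE). Whether they differ between genes was not tested. The pooled SD within groups, which bears on overlap, was 0.24, 0.60 and 0.81 in the same order. All OE1 arrays lay above all Col-0 arrays for 8.97% of probe sets, all OE2 arrays for 10.6% and all fls1-3 arrays for 6.75%. All fls1-3 arrays lay above the other 9 for 1.18% of probe sets, XTH18 and IRX15-L among them. Since the genes were chosen on these comparisons, nothing is read from their own counts. The 3 comparisons share the Col-0 arrays.

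Arrays of 1 group also differed together. For AT5G62360, replicate 1 was the highest array of both OE2 and fls1-3, by 1.13 and 1.17 log2 units over replicate 2. For XTH18, replicate 1 was again the highest of both groups. Replicate numbers are not taken as matched between groups. Over the probe sets, the deviations of replicate 1 of OE2 and of fls1-3 from their group means had r = -0.16. After removal of the group means, the deviations of XTH18 and AT5G62360 over the 12 arrays had a correlation of r = 0.81. The same value was 0.64 for IRX15-L with AT5G62360 and 0.18 for XTH18 with IRX15-L. These are descriptions, since arrays share their normalization and the deviations within a group sum to 0. The array of fls1-3 replicate 1 had a median log2 signal of 7.51 and the highest share of floor values of 0, 1.47%, of the 12 arrays, and the part of this in its XTH18 signal was not tested.

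**Figure D2:**
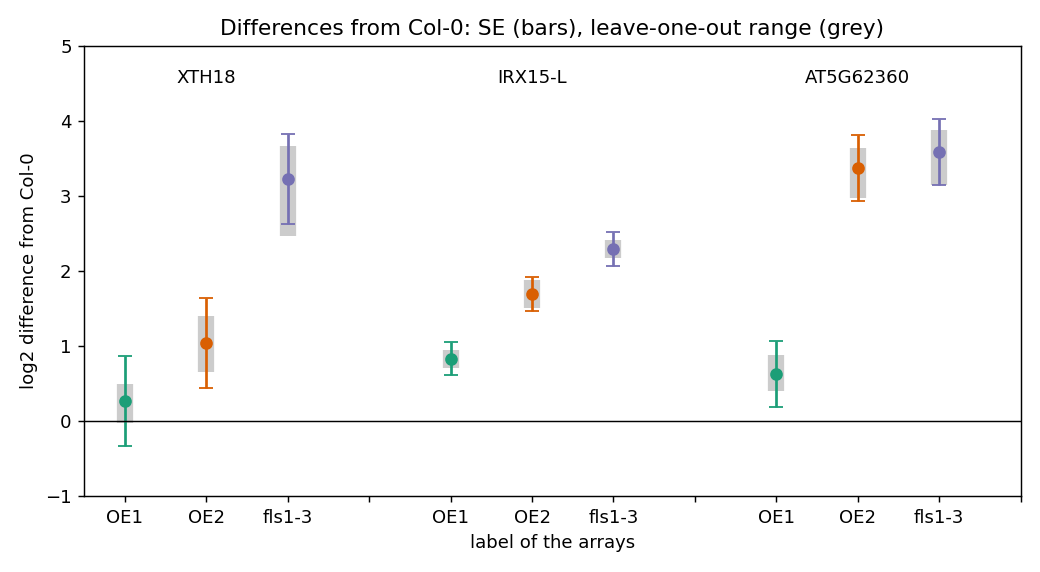
Log2 difference of each gene from Col-0 for the arrays labelled OE1, OE2 and fls1-3, with bars for the standard error and grey bands for the range when each of the 12 arrays is left out in turn. The bands stay above 0 except for XTH18 in OE1, whose band reaches -0.03, and the band of XTH18 in fls1-3 runs from 2.47 to 3.66.

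The wider families were read from lists of wall genes. The names listed for xyloglucan, xylan, pectin, cellulose and secondary wall control gave 229 genes. Names without a single match in the reference gene table were left out. Of the 229 genes, 36 have a probe set that names them alone, and 33 remain when XTH18, IRX15-L and AT5G62360 are set aside. None of the 33 passed the limma test at an adjusted p of 0.05 in any line against Col-0. Over all probe sets the test called 0% in OE1, 0.989% in OE2 and 1.2% in fls1-3. At an unadjusted p under 0.05 the limma test gave 4 of the 33 in OE1, 5 in OE2 and 7 in fls1-3, against 2429, 2581 and 2331 of all 22746 probe sets. The median log2 difference of the 33 was 0.16 in OE1, 0.20 in OE2 and 0.21 in fls1-3, beside 0.11, 0.083 and -0.0039 over all probe sets. All arrays of the line lay above all Col-0 arrays for 1 of the 33 in OE1, 9 in OE2 and 2 in fls1-3. Over all probe sets these shares were 8.97%, 10.6% and 6.75%. All arrays of the line lay below all Col-0 arrays for 2 of the 33 in OE1 and 0 in OE2 and fls1-3. The share of all probe sets lying below Col-0 is not given here, so nothing is read from these counts.

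Among the xyloglucan endotransglucosylases, 10 of 33 listed genes were measured, and 0 of the 9 other than XTH18 were called in any line. Their median differences from Col-0 were 0.018 in OE1, 0.28 in OE2 and 0.23 in fls1-3. XTH19, which lies next to XTH18 on the chromosome, had log2 signals of 2.16, 4.85 and 5.51 in Col-0 and 7.18, 7.10 and 3.08 in fls1-3. For XTH19, replicates 1 and 2 of fls1-3 lay above Col-0 and replicate 3 lay within its range, and the difference of 1.61 did not pass (adjusted p = 0.757). XTH18 and XTH19 are close in sequence, and how far their probes share transcripts was not tested. XTH20, another close relative, had a difference of 0.80 in fls1-3 and -1.07 in OE2 (adjusted p = 0.91 and 0.779). XTH27, listed as EXGT-A3 and known from leaf veins, had values of -0.29, 0.29 and 0.23 in OE1, OE2 and fls1-3. XTH32 had 0.11, -0.10 and -0.44, and XTH16 had 0.98, 1.55 and 1.03. None of these 3 passed the test in any line. For XTH16, however, all OE2 arrays, from 8.24, lay above all Col-0 arrays, which reached 8.05.

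The synthesis of the xyloglucan backbone was represented by 4 genes of the CSLC family, which make its glucan chain. In fls1-3 their differences lay between -0.16 and 0.11, in OE2 between 0.020 and 0.10, and in OE1 between 0.028 and 0.71, and none passed. CSLC04, CSLC5 and CSLC6, the brightest of them, had values of -0.06, -0.16 and -0.14 in fls1-3.

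For xylan, 54 listed names gave 35 genes, of which 5 were measured, IRX15-L and 4 others. IRX15, the closest relative of IRX15-L, had log2 signals of 1.79, 2.07 and 2.11 in Col-0, 2.71, 2.50 and 1.87 in OE1, 2.24, 3.00 and 4.32 in OE2, and 4.67, 5.05 and 2.60 in fls1-3. Its group means had the same order as those of IRX15-L, but neighbouring groups overlapped. All its OE2 and fls1-3 arrays, from 2.24 and 2.60, lay above its Col-0 arrays, which reached 2.11. Its difference of 2.12 ± 0.81 in fls1-3 did not pass (limma, adjusted p = 0.347). Its signals lie in a dim range where the median SD between arrays is 1.37 below a log2 signal of 3 and 1.29 from 3 to 5. The backbone enzymes IRX10, listed as GUT2, and IRX10-L, listed as GUT1, had differences of -0.03 and 0.17 in fls1-3 and 0.32 and 0.15 in OE2. TBL32, which adds acetyl groups to xylan, had -0.11 in fls1-3. None of these 3 passed in any line, and each differed from Col-0 by at most 0.32 in size.

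The pectin methylesterases and their inhibitors were the list with the most measured genes, 13. The 112 names of this list gave only 36 genes, since names without a single match in the reference gene table were left out. Of the 12 other than AT5G62360, 0 were called. Their medians were 0.48 in OE1, 0.63 in OE2 and 0.74 in fls1-3, and 8, 9 and 10 of them had values above 0. Over all probe sets, 41.8%, 42.3% and 50.3% of the differences lay below 0 in OE1, OE2 and fls1-3. Whether the list departs from these shares was not tested. AT5G62350 and AT5G62340, members of the same family, lie next to each other and beside AT5G62360 on the chromosome. AT5G62350 had log2 signals of 11.17, 12.05 and 12.30 in Col-0, 13.06, 13.04 and 12.89 in OE2, and 13.26, 13.03 and 11.96 in fls1-3. Its OE2 arrays all lay above Col-0 and its fls1-3 arrays did not, and the differences of 1.16 ± 0.33 and 0.91 ± 0.33 did not pass (adjusted p = 0.161 and 0.316). AT5G62340 was dim, with values of -0.17 in OE2 and 0.98 in fls1-3 (adjusted p = 0.969 and 0.851).

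AT4G25260, an inhibitor family gene elsewhere in the genome, had log2 signals of 5.90, 7.95 and 7.62 in Col-0, 9.02, 9.43 and 8.60 in OE2, and 9.09, 9.58 and 7.60 in fls1-3. Its differences of 1.86 ± 0.55 in OE2 and 1.60 ± 0.55 in fls1-3 did not pass (adjusted p = 0.173 and 0.264). AT3G47380, also of the inhibitor family, had 1.27 in OE2 and 1.02 in fls1-3 (adjusted p = 0.272 and 0.462), and AT1G14890 had 1.17 and 0.58. For AT5G62350, AT4G25260 and AT3G47380, Col-0 replicate 1 was the lowest Col-0 array and fls1-3 replicate 3 the lowest fls1-3 array. These were also the arrays with the lowest median log2 signals, 7.10 and 7.12, and the part of that in these values was not tested. PMEPCRF, a methylesterase gene, had -0.26, -0.18 and -0.18 in OE1, OE2 and fls1-3. ATPMEPCRB, another methylesterase gene, had 1.29 ± 0.34 in fls1-3 and did not pass (adjusted p = 0.119), but without Col-0 replicate 3 the difference was 1.69 and it passed (limma, adjusted p = 0.0231).

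**Figure D3:**
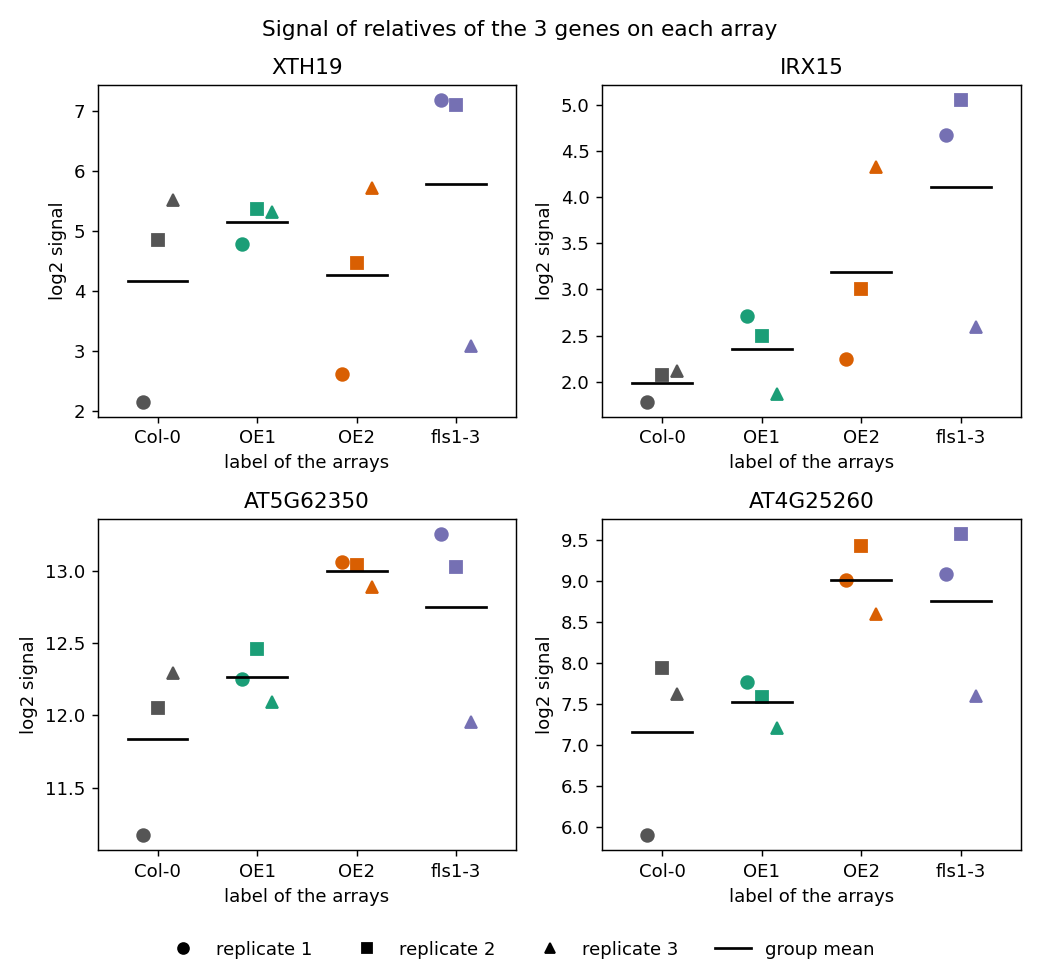
Log2 signal on each array of XTH19, IRX15, AT5G62350 and AT4G25260, relatives of the 3 genes, with a marker for each replicate number and a line at the group mean (the vertical axes differ and do not start at 0). The lowest fls1-3 arrays of XTH19, AT5G62350 and AT4G25260, at 3.08, 11.96 and 7.60, lie within the range of the Col-0 arrays. That of IRX15, at 2.60, lies above the Col-0 arrays and within the range of the OE1 arrays.

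The other wall lists held 4 measured genes. GAUT15, of a galacturonosyltransferase family that includes pectin synthases, had differences of 0.52, 0.52 and 0.71 in OE1, OE2 and fls1-3 (adjusted p = 0.455, 0.396 and 0.202). ADPG1, a polygalacturonase gene of organ separation, and AT59, a pectate lyase gene, had values of -2.28 and -1.87 in fls1-3, both from dim signals and neither past the test (adjusted p = 0.486 and 0.635). COB, for the COBRA protein that orients cellulose deposition, had -0.08, 0.20 and 0.06. No gene of the list of secondary wall regulators has a named probe set, so the regulators of xylan genes were not analysed here.

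**Figure D4:**
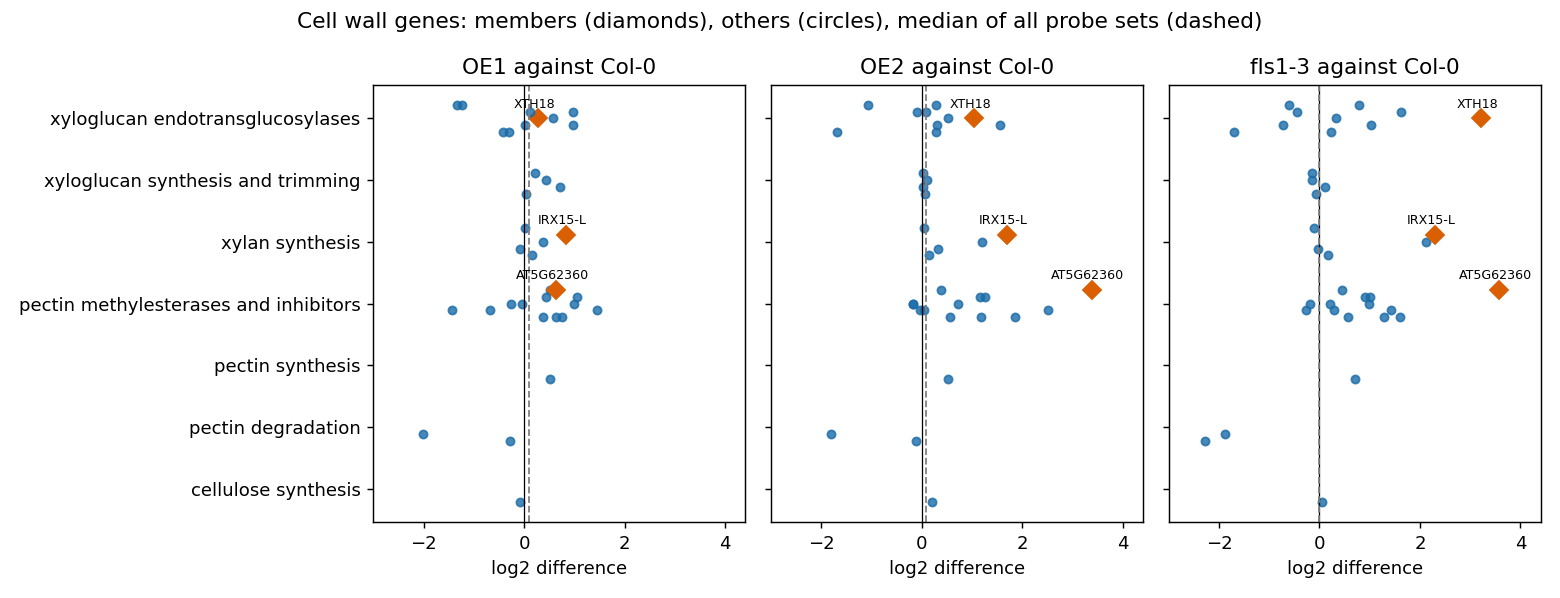
Log2 difference from Col-0 of every measured wall gene, by list (rows) and by the label of the arrays (panels), with XTH18, IRX15-L and AT5G62360 as diamonds, other genes as circles and the median of all probe sets as a dashed line. In OE2 and fls1-3 the circles of the methylesterase and inhibitor list lie mostly above 0, 9 and 10 of 12, but none passed the test. Over all probe sets, 42.3% and 50.3% of the differences lay below 0 in OE2 and fls1-3.

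Genes whose profile over the 12 arrays was most like each member were taken from 5946 probe sets with a single gene name and a mean at or above the median. Likeness was Pearson's r, and since the groups differ it mostly follows the group means. For IRX15-L the likest were AT1G52720 at r = 0.986, AT3G55430 at 0.956, AT1G61100 at 0.952, AT5G54300 at 0.944 and NAI1, a transcription factor gene of endoplasmic reticulum bodies, at 0.943. Within groups the r of AT1G52720 was 0.72, and that of AT5G54300 was 0.31. For AT5G62360 the likest were AT4G32800 at 0.963, AT3G11420 at 0.956, NAI1 at 0.941, AT2G34930 at 0.940 and UGT85A2, a glucosyltransferase gene, at 0.938. AT4G32800, of the AP2/ERF family of transcription factors, also followed it within groups, at 0.93. For XTH18 the likest were AT1G61610 at 0.935, AT4G08170 at 0.931, AT5G65300 at 0.917, AT5G47730 at 0.912 and AT1G11960 at 0.912.

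NAI1 was the 1 gene found near both IRX15-L and AT5G62360, with means of 6.93 in Col-0, 7.27 in OE1, 8.30 in OE2 and 8.91 in fls1-3. None of the genes nearest to a member belongs to the wall lists. At most 36 of the 5946 candidates could have been wall list genes, so little can be read from this. XTH18 and AT5G62360, with mean signals of 6.301 and 7.315, were themselves below the cut of 7.335 and were not candidates. The number of candidates with r above 0.9 was 19 for IRX15-L, 16 for AT5G62360 and 7 for XTH18, while the median r over the candidates was close to 0, at -0.031, -0.021 and -0.051.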

How the data were processed

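Per the labels' protocols, Trizol was used to extract total RNA, and 6 µg of it was turned into cRNA carrying biotin, and each sample was hybridised to 1 Affymetrix array. The authors' deposited values are log2 signals; MAS5 is named in the submitters' processing notes, with no version given in the sources used here. The 2% trimmed mean of the linear signals is 500.05 on all 12 arrays, so the deposited values had been scaled to it. They were used unchanged.

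Groups follow the titles. Of 22810 probe sets, 64 controls were left out. Gene names came from the platform annotation, in which 13513 probe sets name 1 gene, 503 several and 8730 none, and locus names and neighbours came from the reference gene table of assembly TAIR10.1. Genes with several probe sets are represented by the brightest. One limma model (limma 3.58.1, R 4.3.3) with a coefficient per group and an intensity trend was fitted to all arrays, with 8 residual degrees of freedom and Benjamini-Hochberg adjustment over all probe sets at 0.05. The number of arrays limits precision.

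The 3 genes and the lists were chosen with earlier results of these data known. Named genes are the 3 members, their listed relatives, called list genes, up to 3 brightest genes per list and the 5 genes likest each member. AT1G52720, AT3G55430, AT3G62010 and AT1G76580 were also named after their values were seen, as were AT4G25260, AT3G47380 and ATPMEPCRB among the methylesterase and inhibitor genes. Alternatives were quantile normalization, median centring, a pseudocount of 16, a filter at the 40th percentile of mean signal, the replicate number as a block, only the groups compared, no trend, each array left out and, added after the data were seen, the OE1 arrays left out.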

Additional observations from a re-analysis of the deposited data

Results flagged for a closer look

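The control probe set AFFX-r2-At-U12639_at lies outside the tested probe sets and has no gene in the annotation used here. Its mean log2 signal was 14.28 ± 0.10 (SD, n = 3) on the arrays labelled OE2 and 13.25 ± 0.23 on those labelled fls1-3, above the 5.05 ± 0.33 of the Col-0 controls, and 1.305 ± 0.59 on those labelled OE1. It drew attention because a signal outside every comparison exceeded its level in the control arrays.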

How the results depend on the processing

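For XTH18, IRX15-L and AT5G62360, 20 alternatives gave 174 differences from Col-0, of which 93 equal the reported value by construction, since the alternative changes only the error or leaves out arrays of another line. The other 81 stayed within 1 SD of the value reported, with the sign kept in 80. The exception in sign was XTH18 in OE1, at -0.03 without OE1 replicate 2. The limit of 1 SD is wide, since leaving out 1 of 3 arrays moves a group mean by only a part of their range. XTH18 in fls1-3 moved by more than its SE of 0.60, from 3.22 to 2.47 without fls1-3 replicate 1. With 1 array left out in turn, XTH18 ranged from 0.65 to 1.40 in OE2 and from 2.47 to 3.66 in fls1-3, IRX15-L from 0.71 to 0.95, 1.51 to 1.88 and 2.17 to 2.41 in OE1, OE2 and fls1-3, and AT5G62360 from 0.41 to 0.89, 2.97 to 3.63 and 3.14 to 3.88. XTH18 has no value under the filter at the 40th percentile, which removes it.

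The count of probe sets called was less stable. In OE1 it was 0, with 0 to 22 when 1 array was left out (22 without Col-0 replicate 3), 3 with the pseudocount of 16, 1 with only the groups compared and 1 with the replicate block. In OE2 it was 225, with 66 to 303 when 1 array was left out, 120 with arrays centred on their medians, 109 with only the groups compared, 93 without the trend and 147 without the OE1 arrays. In fls1-3 it was 272, with 103 to 369, 156, 31, 103 and 157 in the same order. Median centring moved the split in OE2 from 117 higher and 108 lower to 55 and 65. The count of wall list genes called stayed at 0 in each alternative, apart from fls1-3 with 0 to 1 when 1 array was left out, the 1 being ATPMEPCRB. The cause of these shifts was not tested, beyond the fewer arrays in some fits. Over all 18 pairs of same-numbered arrays of different groups, deviations from the group means correlated at r = -0.72 to 0.75, with 5 pairs above 0.1, so the numbers were not taken as pairs. The replicate block cannot change a difference between group means in this balanced design, and it moved the SE of XTH18 from 0.60 to 0.55.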
